A study of Mus musculus with 6 samples.

Results

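Translation factors and aminoacyl-tRNA synthetases were examined in the liver transcriptomes of 3 acute ethanol-exposed and 3 control mice. Members were the genes whose symbol begins with Eif1 to Eif6, Eef1 or Eef2, or that the deposited table annotates to the KEGG pathway of aminoacyl-tRNA biosynthesis. Mitochondrially encoded genes and pseudogenes were left out. This gave 113 of 28880 genes, 69 by symbol and 44 by pathway, after 10 pseudogenes had been set aside. By role they comprised 56 initiation factors and their regulators, 13 elongation factors and their regulators, 21 cytosolic synthetases, and 23 mitochondrial synthetases and other enzymes that act on aminoacyl-tRNA. Of these, 110 had enough counts to be tested. Eef1a2, the elongation factor eEF1A form of muscle and neurons, had no count in any library, and the helicase copies Eif4a3l1 and Eif4a3l2 had almost none.

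All mice were male, wild-type C57BL/6J animals of 6 to 8 weeks. The ethanol group had been fasted for 12 h, was given 50% (v/v) ethanol by mouth once at 6 g/kg, and was sampled 24 h afterwards. Controls received no ethanol. Whether they were also fasted is not stated, so an effect of ethanol and one of the preceding fast cannot be told apart. Whole liver was sequenced. In such tissue, fewer cells of a type and less RNA per cell cannot be told apart. The model is an acute, single-dose one.

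Each library held 60514417 to 74210869 counts, so counting error was small for most members and the number of mice set the precision. The TMM factors, which rescale libraries on the bulk of genes, were 0.768 to 0.836 for ethanol libraries and 1.26 to 1.27 for controls. Principal component 1 (65.2% of variance) separated the groups and principal component 2 (16.7%) set ethanol replicate 3 apart. Among defining liver markers, 6 of 8 hepatocyte genes rose, with summed levels of 132950 to 135762 normalized CPM (counts scaled to library size and TMM factor) after ethanol and 71831 to 83952 CPM in controls. The 6 neutrophil markers summed to 1.77, 2.85 and 10.8 CPM in ethanol replicates 1 to 3 against 0.262 to 0.401 CPM in controls, and 3 of the 3 tested rose. Summed levels of 4 erythroid markers were 403 to 600 CPM after ethanol and 142 to 175 CPM in controls, where 2 of 3 tested rose. Summed Kupffer cell markers were 66.9 to 90.4 CPM after ethanol and 91.4 to 96.2 CPM in controls, with 1 of 6 lower. Stellate cell markers, of which 3 of 5 rose, summed to 202 to 247 CPM after ethanol and 148 to 168 CPM in controls. Pancreas acinar markers summed to 9.32 to 11.0 CPM against 17.2 to 21.6 CPM. Sums overlapped between groups for endothelial markers (1 of 5 higher, 2 lower), B cell markers (1 of 4 lower) and cholangiocyte markers (1 of 5 higher). The tested pancreas acinar marker fell, and neither of the 2 tested T cell markers passed. Muscle markers were at 0 to 0.110 CPM, with Acta1 at 0 in all libraries, and T cell markers were at 0 to 0.403 CPM against 0.761 to 0.970 CPM. These rises depend on the scaling. With library size alone the summed hepatocyte markers overlapped between groups (102010 to 111942 against 90287 to 106178 CPM, 2 of 8 higher and 1 lower), and so did the stellate markers (155 to 206 against 187 to 213 CPM, 0 higher and 1 lower). Kupffer cell markers were then lower in 5 of 6, whereas the neutrophil and erythroid sums stayed above all controls. The part of all these markers in the results on translation genes was not tested.

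Protein synthesis starts when eIF2 brings the initiator tRNA to the small ribosomal subunit and the eIF4 factors recruit a capped mRNA. It continues as eEF1A delivers charged tRNAs and eEF2 moves the ribosome along. Synthetases charge each tRNA with its amino acid. Supply and stress signals act at initiation. Kinases that phosphorylate eIF2 reduce initiation while favouring translation of Atf4, and the 4E-binding proteins, when not phosphorylated by mTORC1, hold the cap-binding protein eIF4E. Liver makes the plasma proteins and is a major consumer of amino acids, and several of these controls respond there to feeding and fasting.

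Of the 110 members tested, 23 were higher and 24 lower after ethanol (edgeR's quasi-likelihood test, adjusted p under 0.05), against 21.5% higher and 21.5% lower (43.0% in either direction) among all 16717 genes tested. The members' shares, 20.9% and 21.8%, were near that background. Their median log2 fold change was -0.05, and that of all genes was -0.04. A log2 fold change beyond 1 in addition was found for 5 higher members (10.4% of all genes) and 7 lower ones (13.8% of all genes). The libraries of the 2 groups did not overlap in 35 members with higher ethanol levels (28.0% of all genes) and 38 with lower ones (31.0% of all genes, and 59.0% in either direction).

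By role, relative to the bulk of genes as TMM sets it, the counts were as follows, with no test of the difference between roles. Initiation genes had 19 higher and 5 lower among 54 tested (median log2 fold change 0.19), and elongation genes 4 higher and 3 lower among 12 (median 0.05). Cytosolic synthetases had 0 higher and 6 lower among 21 (median -0.22). The mitochondrial synthetases and other enzymes had 0 higher and 10 lower among 23 (median -0.54). With library size alone all 4 medians were negative, at -0.48, -0.62, -0.89 and -1.22 in that order, and initiation genes had 3 higher and 30 lower. When genes under a mean of 5 FPKM were left out, the balance of initiation genes also turned, to 11 higher and 14 lower of 39 (29.3% and 27.5% of all genes in that fit). In the same fit elongation genes had 3 higher and 1 lower of 6, cytosolic synthetases 9 lower of 14 and the mitochondrial group 4 lower of 4. With the length trend removed, initiation genes had 25 higher and 2 lower (23.9% and 18.0% of all genes). Without control replicate 1, initiation genes had 13 higher and 1 lower (15.8% and 14.3% of all genes). Their lower count was 2 without control replicate 2 (13.8% of all genes), and 3 without control replicate 3 (13.5%) or ethanol replicate 1 (2976 of 17526 genes). Without ethanol replicate 3, the lower counts became 9 for initiation genes, 10 for cytosolic synthetases and 14 for the mitochondrial group, and both synthetase groups gained 1 higher gene. In that fit 24.7% of all genes were higher and 27.4% lower.

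**Figure D1:**
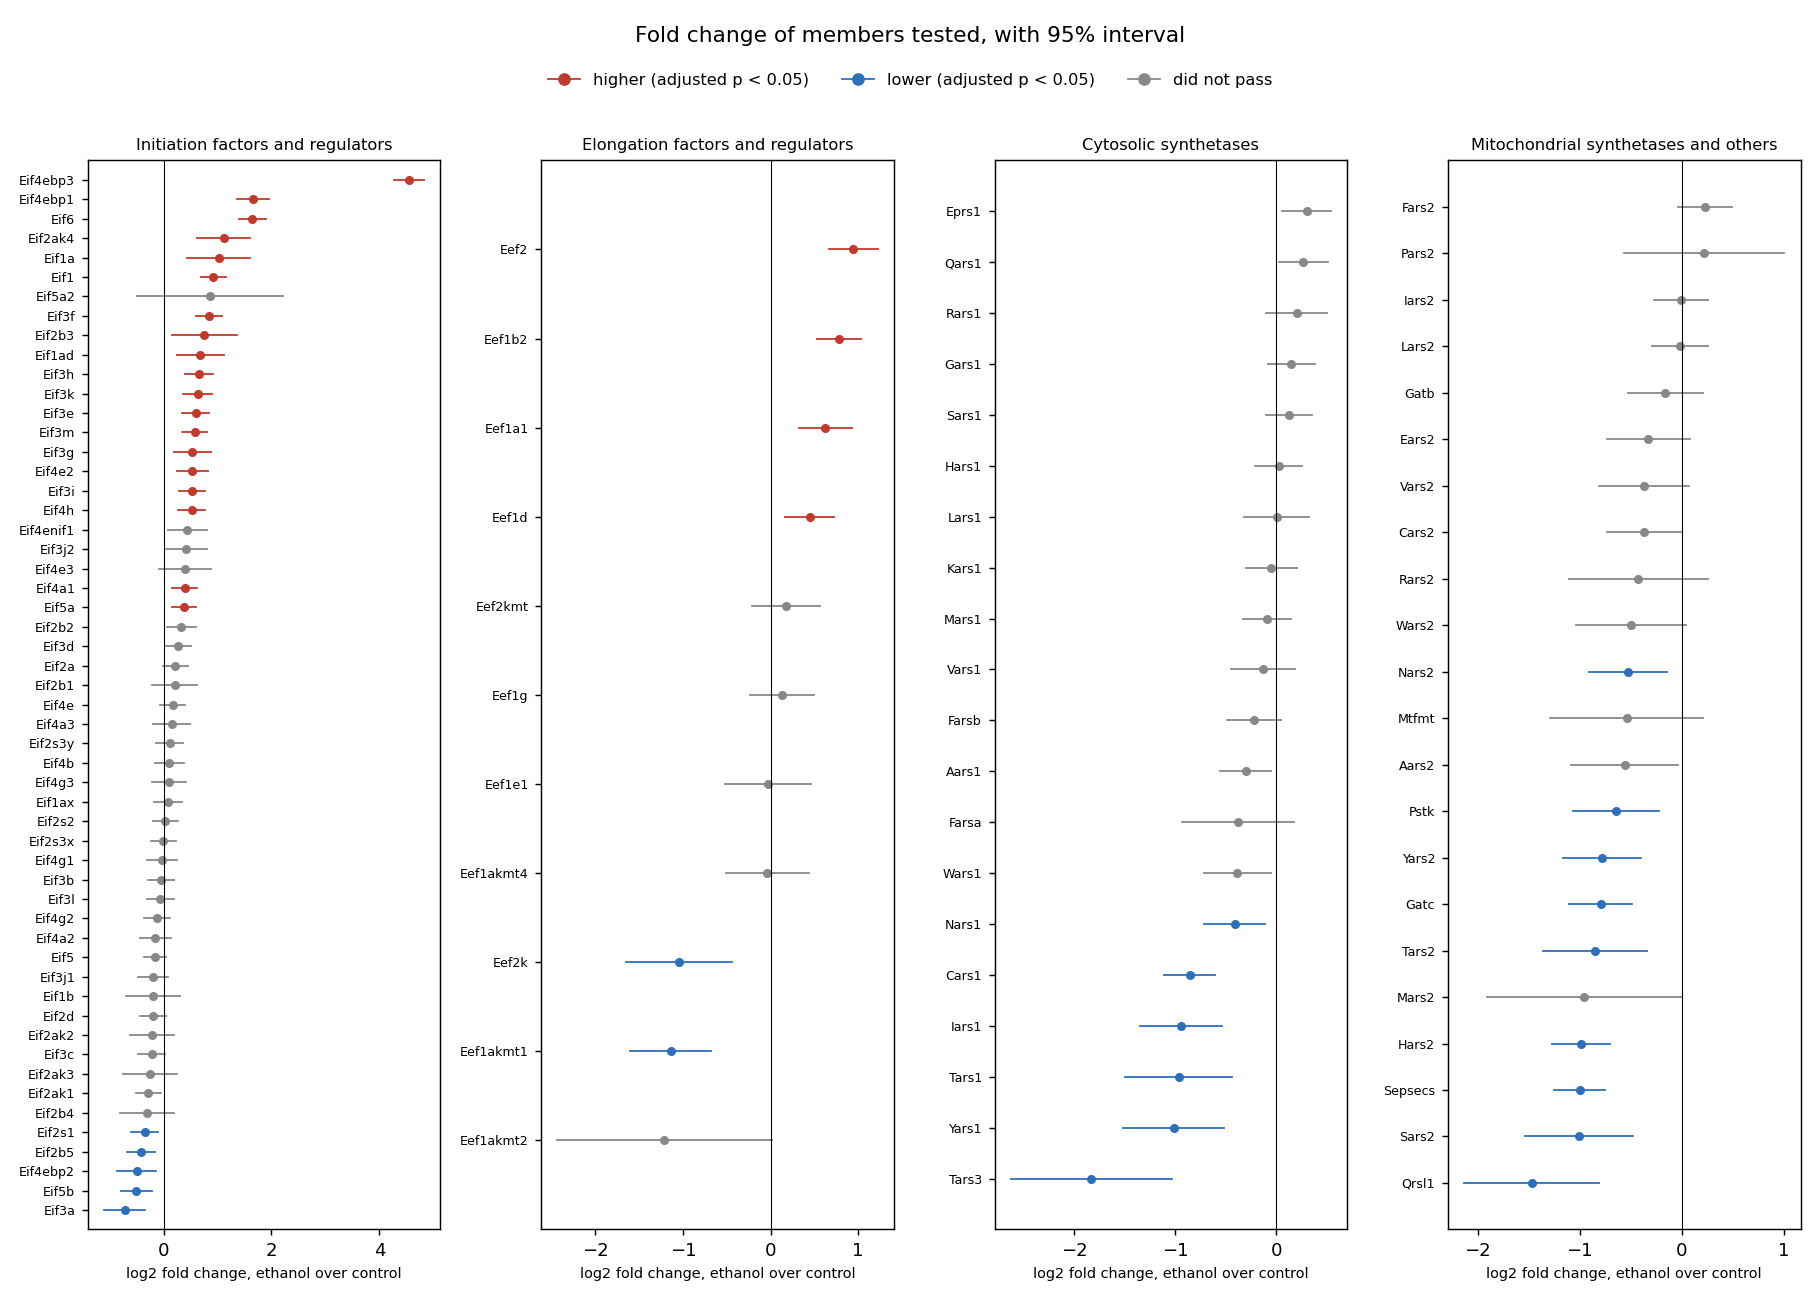
Log2 fold change (ethanol over control, x axis) of members tested, as a point with its 95% interval, in 4 role groups. Eef1akmt3, which had no counts after ethanol, and 2 further members are not drawn. Initiation genes extend to Eif4ebp3 at 4.55, whereas no member of either synthetase panel is called higher.

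Scaling set how many initiation and elongation genes were called higher. With library size alone, the median over all genes shifted to a log2 fold change of -0.71, and the members' median was also -0.71. Only 3 members then remained higher (7.39% of all genes) and 81 were lower (48.3% of all genes), and 12 of the 23 higher members changed sign. Under 5 scalings (TMM, median ratio, upper quartile, library size alone, and TMM with the trend over transcript length removed), 3 members were called higher in every one (7.37% of all genes) and 17 lower (17.5% of all genes). The higher ones were Eif4ebp1, Eif4ebp3 and Eif6. Among the lower ones were the synthetases Cars1, Iars1, Tars1, Tars3, Yars1, Hars2, Sars2 and Yars2, the other tRNA enzymes Gatc, Qrsl1 and Sepsecs, and Eef2k, Eef1akmt1, Eef1akmt3, Eif2b5 and Eif3a. Changes given below are relative to the bulk of genes as TMM sets it.

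**Figure D2:**
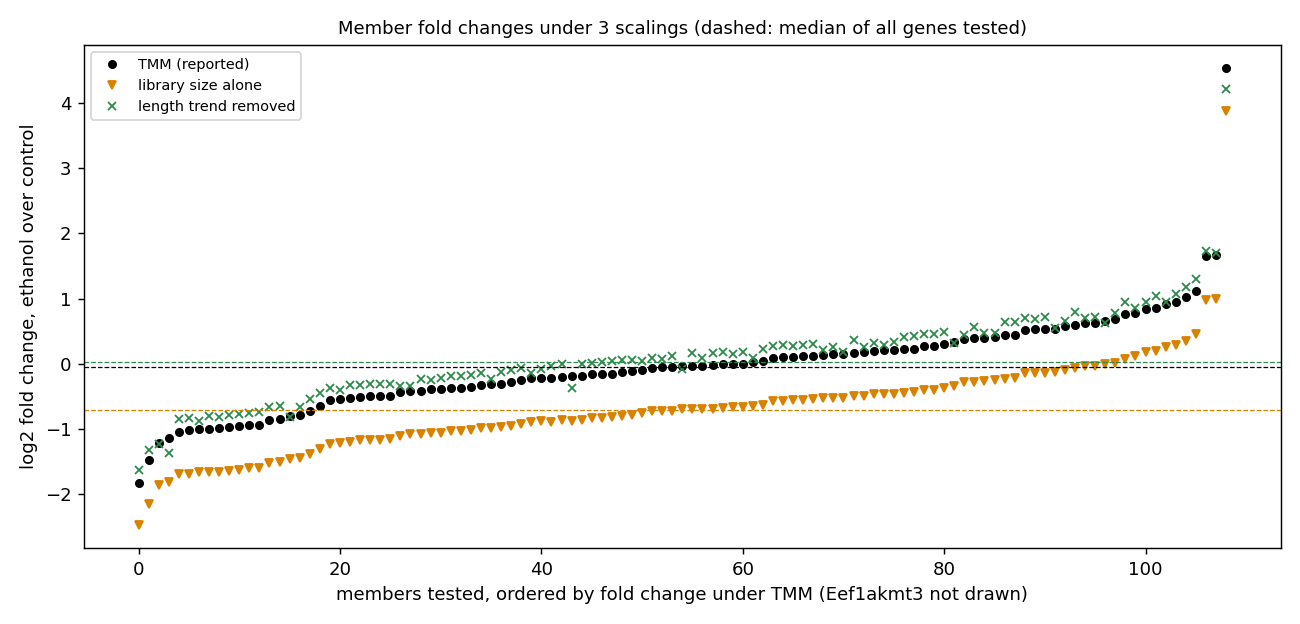
Log2 fold change (y axis) of each member tested except Eef1akmt3, ordered by its value under TMM (x axis), under TMM, library size alone and removal of the length trend, with dashed lines at the median of all genes. Library size alone lowers all members together with the median of all genes, which moves from -0.04 to -0.71.

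Among members with counts in both groups, the largest fitted change was that of a 4E-binding protein. Eif4ebp3 was at 136, 136 and 148 CPM in the ethanol libraries and 6.58, 5.79 and 5.56 CPM in the controls. Every ethanol library was far above every control. It was 23.4-fold higher (log2 fold change 4.55, SE 0.12, adjusted p = 1.62e-05), and its log2 fold change with library size alone was 3.88. Eif4ebp1 was at 59.6, 54.1 and 67.2 CPM after ethanol and 20.1, 19.8 and 17.2 CPM in controls, again without overlap. It rose 3.17-fold (log2 fold change 1.67, SE 0.13, adjusted p = 0.000191). Eif4ebp2, by contrast, was at 101, 105 and 138 CPM after ethanol and 180, 157 and 150 CPM in controls. The groups did not overlap, and it fell by 0.50 on the log2 scale (SE 0.15, adjusted p = 0.0335). That call did not hold without any 1 of the 3 controls or without ethanol replicate 1 or 2 (adjusted p 0.0664 to 0.112). It was also lost with the length trend removed and with the replicate block.

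These opposite changes altered which 4E-binding protein mRNA prevailed. Per transcript length, in FPKM, Eif4ebp2 made up 63.4%, 61.8% and 62.9% of the summed level of the 3 genes in the controls and 7.67%, 8.07% and 9.47% after ethanol. Eif4ebp3 made up 18.0%, 17.7% and 18.2% in the controls and 80.4%, 81.0% and 78.4% after ethanol. Shares within a library do not depend on the factor that scales the library. Eif4e itself, which these proteins bind, was at 39.7, 43.4 and 39.8 CPM after ethanol and 35.1, 38.6 and 35.5 CPM in controls, with a log2 fold change of 0.17 (adjusted p = 0.199) that turned to -0.49 with library size alone. The summed FPKM of the 3 binding proteins over that of Eif4e was 34.5, 31.2 and 38.2 after ethanol and 8.42, 6.84 and 6.97 in controls. That is a 4.68-fold difference, with an exact two-sided permutation p of 0.1, the smallest that 3 against 3 libraries can give.

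In the deposited table, Eif4ebp3 (ENSMUSG00000090264) lies on the plus strand at chr18:36797113-36798970, within the longer gene Maskbp3 on the same strand. Reads counted for either could belong to the other. Maskbp3 had 206 to 891 counts per ethanol library and 1000 to 1186 per control, with a log2 fold change of -0.65 (adjusted p = 0.354), so it did not show the rise of Eif4ebp3. Eif4ebp1 (ENSMUSG00000031490), at chr8:27750357-27766702 on the plus strand, overlaps no other gene of the table.

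**Figure D3:**
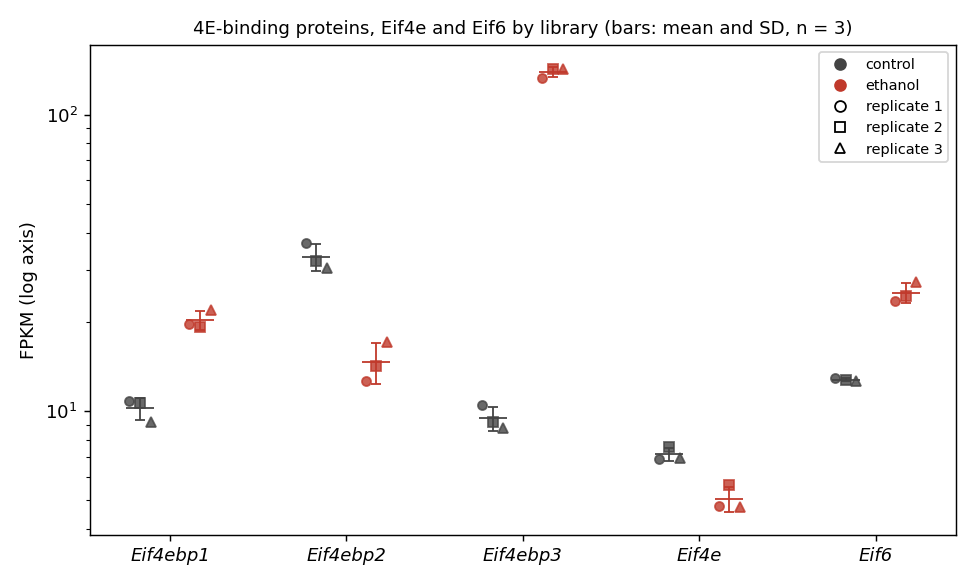
FPKM (log axis) of the 4E-binding proteins, Eif4e and Eif6 in each of 3 control and 3 ethanol libraries, with mean and SD. Eif4ebp3 is the lowest of the 3 Eif4ebp genes in the controls, at 8.78 to 10.5 FPKM, and the highest after ethanol, at 133 to 143 FPKM. FPKM values are scaled by library total alone, so Eif4e lies lower after ethanol here and higher under TMM.

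Of the other eIF4 factors, 3 of 11 tested rose and 0 fell, against 21.5% of all genes in each direction. Scaled by library size alone, 0 rose and 7 fell (7.39% and 48.3% of all genes). Of the 8 with a mean FPKM of at least 5, 1 rose and 3 fell (29.3% and 27.5% of all genes). Without control replicate 1 only 1 rose (15.8% of all genes). The mRNA-unwinding helicase Eif4a1 was at 216, 224 and 223 CPM after ethanol and 156, 176 and 173 CPM in controls, without overlap. Its log2 fold change was 0.39 (adjusted p = 0.0162), it lost the call without any 1 control (adjusted p 0.0540 to 0.0605), and it turned to -0.27 with library size alone. The scaffold Eif4g1 overlapped between groups, at 269 to 341 CPM after ethanol and 292 to 319 CPM in controls (log2 fold change -0.03, adjusted p = 0.859). Eif4h, a partner of the helicase, rose by 0.52 (adjusted p = 0.00716) and Eif4e2, another cap-binding protein, by 0.53 (adjusted p = 0.0116), with -0.14 for each with library size alone. The Eif4e2 call was lost without control replicate 1 (adjusted p = 0.0508).

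Eif6 keeps the large ribosomal subunit from joining too early and is needed to make that subunit. It was at 87.8, 84.8 and 102 CPM after ethanol and 29.5, 29.3 and 28.9 CPM in controls. All ethanol libraries were above all controls, and the difference was 3.13-fold (log2 fold change 1.65, SE 0.11, adjusted p = 0.000126). The log2 fold change was 0.98 with library size alone. Eif6 (ENSMUSG00000027613) lies at chr2:155661752-155668845 on the minus strand and overlaps Gm16098 on the other strand, which had 12 to 32 counts per library. Eif5b, the factor that promotes subunit joining, fell by 0.51 on the log2 scale (25.1, 28.7 and 29.1 CPM against 44.1, 38.2 and 35.4 CPM, adjusted p = 0.0148), but not without control replicate 1 (adjusted p = 0.0541). The FPKM ratio of Eif6 to Eif5b was 10.7 to 12.7 after ethanol and 2.41 to 2.95 in controls.

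Of 5 genes named for eIF1 or eIF1A, 3 rose (Eif1, Eif1a and Eif1ad) and 0 fell, against 21.5% of all genes in each direction. With library size alone 0 rose and 2 fell (7.39% and 48.3% of all genes). The Eif1ad call was lost without control replicate 1 or 3 (adjusted p 0.0760 and 0.0925). In each of those fits 1 of the 5 genes was higher (15.8% and 14.5% of all genes). Eif1, which checks start codon pairing, was at 308, 287 and 323 CPM after ethanol and 160, 160 and 165 CPM in controls. The libraries did not overlap, with a log2 fold change of 0.92 (SE 0.10, adjusted p = 0.000618) and 0.25 with library size alone. Its partner Eif1a was at 86.9, 71.7 and 144 CPM after ethanol and 51.0, 45.7 and 52.0 CPM in controls. Ethanol replicate 3 was the highest and none overlapped (log2 fold change 1.02, SE 0.25, adjusted p = 0.0146). Without any 1 control the Eif1a call was lost (adjusted p 0.0512 to 0.0619). It was also lost with library size alone (log2 fold change 0.34, adjusted p = 0.235). The X-linked form Eif1ax differed by 0.09 (adjusted p = 0.533). Near-identical copies of this kind, such as Eif3j1 and Eif3j2 or Eif2s3x and Eif2s3y, could have shared reads in the authors' counting.

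The exchange factor eIF2B reloads eIF2 with GTP. Under TMM, 0 of 4 subunits of eIF2 rose and 1 fell, against 21.5% of all genes in each direction. With library size alone 4 of 4 fell (81 of 110 members and 48.3% of all genes in that fit). The alpha subunit Eif2s1, the one that the stress kinases phosphorylate, was at 19.95, 23.1 and 22.0 CPM after ethanol and 26.7, 29.2 and 27.0 CPM in controls (log2 fold change -0.35, adjusted p = 0.0334). This call was lost without any 1 control or without ethanol replicate 1 (adjusted p 0.0726 to 0.128). It was also lost with the length trend removed (log2 fold change -0.17, adjusted p = 0.229) and with the replicate block (-0.35, adjusted p = 0.0755). Eif2s2, Eif2s3x and Eif2s3y had log2 fold changes of 0.04, -0.0017 and 0.11, and their libraries overlapped. In eIF2B, 1 of 5 rose and 1 fell, near the 21.5% of all genes in each direction, whereas with library size alone 0 rose and 3 fell (7.39% and 48.3% of all genes). The largest was Eif2b3 (log2 fold change 0.76, adjusted p = 0.0483), whose call was lost without any 1 control (adjusted p 0.112 to 0.144). Its log2 fold change was 0.41 without ethanol replicate 3 (adjusted p = 0.0242) and 0.08 with library size alone (adjusted p = 0.795). The smallest was Eif2b5, the catalytic subunit, at 25.1, 25.9 and 22.5 CPM against 34.0, 33.8 and 30.2 CPM. Eif2b5 fell by 0.41 on the log2 scale (adjusted p = 0.0195), but not without control replicate 1 or 2 (adjusted p 0.0707 and 0.0800). Eif2b1, Eif2b2 and Eif2b4 had log2 fold changes of 0.21, 0.33 and -0.30 and did not pass. Without ethanol replicate 3, Eif2b2 was called higher (0.33, adjusted p = 0.0411) and Eif2b4 lower (-0.56, adjusted p = 0.00660). Eif2b2 also passed as higher with DESeq2 (adjusted p = 0.0249) and with the length trend removed (adjusted p = 0.0491). With library size alone it was lower (-0.34, adjusted p = 0.0398).

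Among the 4 eIF2 kinases, 1 rose (Eif2ak4) and 0 fell in the main test, against 21.5% of all genes in each direction. Eif2ak4 encodes GCN2, which senses uncharged tRNA. Its levels were 17.3, 15.6 and 10.2 CPM after ethanol and 7.11, 6.37 and 6.46 CPM in controls, with ethanol replicate 3 nearest to the controls and no overlap. Eif2ak4 rose 2.16-fold (log2 fold change 1.11, SE 0.21, adjusted p = 0.00549). With library size alone its log2 fold change was 0.45 and did not pass (adjusted p = 0.123). The other 3 kinases were then called lower, as were 48.3% of all genes. The heme-regulated kinase Eif2ak1 was at 30.2 to 32.4 CPM against 36.1 to 40.4 CPM (log2 fold change -0.28, adjusted p = 0.0518), and it passed with DESeq2 (adjusted p = 0.0328) and upper quartile scaling (adjusted p = 0.01996). The double-stranded RNA sensor Eif2ak2 (-0.21, adjusted p = 0.343) and the endoplasmic reticulum kinase Eif2ak3 (-0.25, adjusted p = 0.381) overlapped between groups. Without ethanol replicate 3, Eif2ak1 (adjusted p = 0.0411) and Eif2ak3 (adjusted p = 0.0240) were called lower, as were 27.4% of all genes. Gcn1, the coactivator of GCN2, rose by 0.47 (adjusted p = 0.0103), although not without control replicate 3 (adjusted p = 0.0539), and its log2 fold change turned to -0.19 with library size alone.

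Subunits of eIF3, the scaffold that binds the small ribosomal subunit, differed in direction within the complex. Of 14 genes, 7 rose and 1 fell (median log2 fold change 0.47), against 21.5% of all genes in each direction. Scaled by library size alone, 0 rose and 6 fell (7.39% and 48.3% of all genes). Of the 13 with a mean FPKM of at least 5, 6 rose and 5 fell (29.3% and 27.5% of all genes). The 7 were Eif3e, Eif3f, Eif3g, Eif3h, Eif3i, Eif3k and Eif3m, with log2 fold changes of 0.53 to 0.84. The Eif3g call was lost without control replicate 1 or 3 (adjusted p 0.0797 and 0.0859). The largest was Eif3f, at 82.8, 74.5 and 78.7 CPM after ethanol and 44.6, 40.4 and 46.4 CPM in controls. Its groups did not overlap, with a log2 fold change of 0.84 (SE 0.10, adjusted p = 0.000994) and 0.17 with library size alone.

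The smallest fold of the complex was that of Eif3a, its largest subunit and part of its core. Eif3a was at 52.4, 57.0 and 77.3 CPM after ethanol and 113, 96.1 and 98.6 CPM in controls. Ethanol replicate 3 was nearest to the controls, and the groups did not overlap. Eif3a fell by 0.72 on the log2 scale (SE 0.16, adjusted p = 0.0115). Among the subunits that did not pass, Eif3b and Eif3c had log2 fold changes of -0.05 and -0.22. Within each library the FPKM ratio of Eif3f to Eif3a was 4.77, 3.94 and 3.07 after ethanol and 1.19, 1.27 and 1.42 in controls, 2.99-fold higher after ethanol. This ratio does not depend on the factor that scales a library, but removal of the length trend would change it. Across the 14 genes, transcript length and log2 fold change had a Spearman rho of -0.55, against -0.25 over the 110 members and -0.13 over all genes tested. These genes share libraries and are not independent, and the part of length in the split was not tested. With the length trend removed, eIF3 had 9 higher and 1 lower (median log2 fold change 0.51). Over all members that fit had 33 higher and 17 lower calls, where all genes had 23.9% and 18.0%.

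Eef1a1 and Eef2 were the most abundant members per transcript length. Eef1a1, which carries charged tRNAs to the ribosome, was at 1280, 1415 and 1035 FPKM after ethanol and 1323, 1284 and 1228 FPKM in controls. In TMM-scaled counts it was at 4403, 4521 and 3599 CPM against 2788, 2717 and 2602 CPM, without overlap. The log2 fold change was 0.63 (SE 0.13, adjusted p = 0.00759), and it turned to -0.04 with library size alone. Processed pseudogenes of Eef1a1 could have taken some of its reads. Of the core factors Eef1a1, Eef1b2, Eef1d, Eef1g and Eef2, 4 rose and 0 fell (21.5% of all genes in each direction), whereas with library size alone 0 rose and 1 fell (7.39% and 48.3% of all genes).

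Eef2, the translocase, was at 1807, 1824 and 1515 CPM after ethanol and 893, 908 and 868 CPM in controls. All ethanol libraries were above all controls, with a log2 fold change of 0.95 (SE 0.12, adjusted p = 0.00112) and 0.28 with library size alone. The exchange factor subunit Eef1b2 was at 142, 148 and 138 CPM against 74.6, 84.8 and 89.5 CPM and rose by 0.78 (SE 0.11, adjusted p = 0.00155), with 0.12 with library size alone. Eef1d rose by 0.45 (adjusted p = 0.0200), turned to -0.22 with library size alone, shares strand and position with part of Naprt, and lost its call in 5 of the 6 fits that left out a library (adjusted p 0.0567 to 0.0792 without any 1 control or without ethanol replicate 1 or 2). Eef1g overlapped between groups, at 145, 151 and 105 CPM against 115, 130 and 121 CPM (log2 fold change 0.13, adjusted p = 0.524). Without ethanol replicate 3, Eef1g was called higher (0.29, adjusted p = 0.0272), as were then all 5 core factors, and with library size alone it was lower (-0.53, adjusted p = 0.0342). Eef1e1 differed by -0.03 (adjusted p = 0.922).

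Eef2k encodes the kinase that inactivates eEF2. It was at 4.05, 5.80 and 2.88 CPM after ethanol and 8.97, 8.79 and 8.54 CPM in controls, all ethanol libraries being lower. It fell by 1.05 on the log2 scale (SE 0.26, adjusted p = 0.0154), and without any 1 control or ethanol replicate 1 the adjusted p was 0.0502 to 0.0556. The FPKM ratio of Eef2 to Eef2k was 1002, 701 and 1181 after ethanol and 222, 231 and 227 in controls, a 4.15-fold difference.

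The enzymes that methylate elongation factors were low, and 2 of 5 fell, against 21.5% of all genes. With library size alone 5 of 5 fell (48.3% of all genes). Eef1akmt1, a lysine methyltransferase of eEF1A, was at 2.54, 2.81 and 3.61 CPM after ethanol and 6.15, 6.65 and 6.96 CPM in controls (log2 fold change -1.14, SE 0.20, adjusted p = 0.00384). Eef1akmt3 had 0 counts in each ethanol library and 11 to 15 counts in each control. Against a floor of 3 counts per ethanol library it was at least 2.89-fold lower (adjusted p = 0.0123), and placing it at that bound leaves the medians of its lists as given. It overlaps Mettl1 on the other strand, which also fell, by 1.02 on the log2 scale (adjusted p = 0.0130), and reads of the pair could not be told apart without strand. Eef1akmt2 was at 0.939, 1.24 and 0.275 CPM against 2.21, 1.43 and 2.08 CPM and did not pass (adjusted p = 0.0980). It overlaps Fgfr2 on the same strand, which fell by 1.51 (adjusted p = 0.000233).

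**Figure D4:**
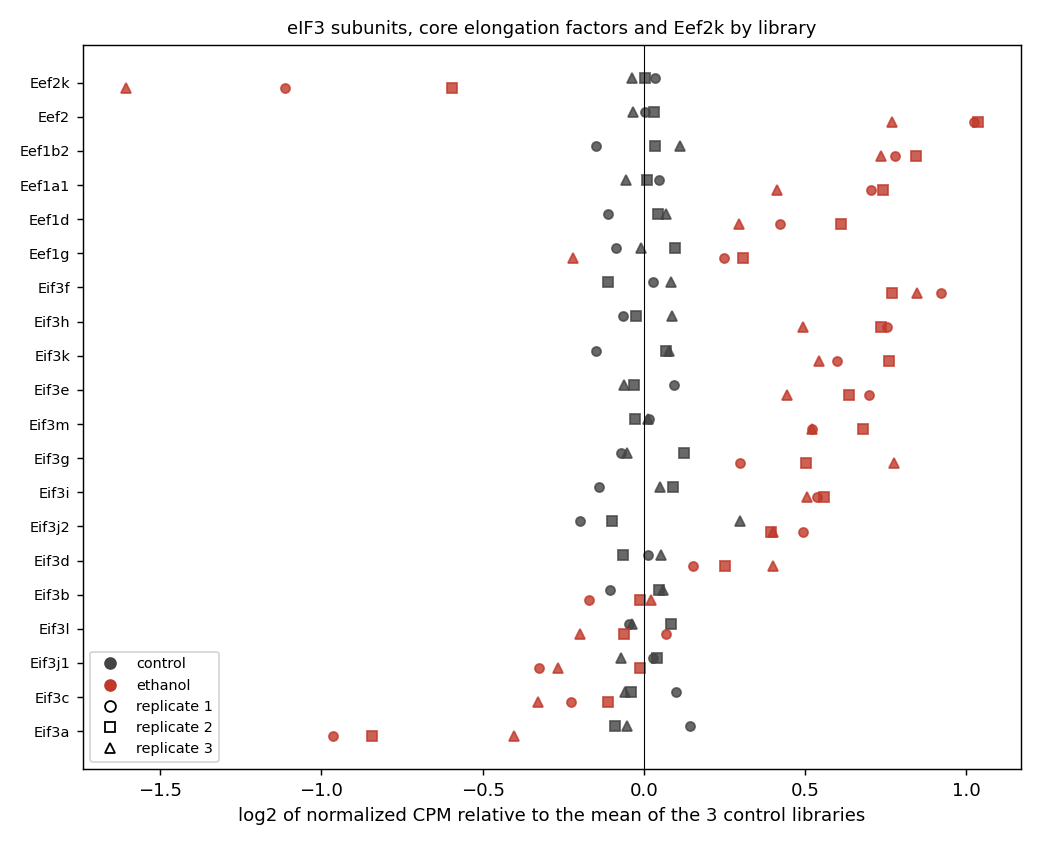
Log2 of normalized CPM relative to the mean of the 3 controls (x axis) for eIF3 subunits, core elongation factors and Eef2k in each library. Eif3a and Eef2k lie left of their controls in all 3 ethanol libraries. Eef2, Eef1b2, Eef1a1, Eef1d and 7 eIF3 subunits that were called higher lie right of theirs.

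Of 21 cytosolic synthetases, 6 fell and 0 rose in the main test. That is 28.6% lower, against 21.5% of all genes, and 5 of the 6 fell under all 5 scalings (17.5% of all genes). All 21 fell with library size alone (48.3% of all genes). DESeq2 called 2 higher (Eprs1 and Qars1) and 9 lower, against 24.2% and 24.9% of all genes. Removal of the length trend gave 3 higher (Eprs1, Qars1 and Sars1) and 5 lower, against 23.9% and 18.0% of all genes. Upper quartile scaling gave 0 higher and 10 lower, against 18.5% and 24.8% of all genes. Tars3, a threonyl-tRNA synthetase paralog, had the largest change, at 2.62, 3.47 and 1.28 CPM after ethanol and 8.91, 8.39 and 8.95 CPM in controls. All ethanol libraries were lower (log2 fold change -1.83, SE 0.34, adjusted p = 0.00517). Tars3 overlaps Tm2d3 on the same strand, which differed by -0.01 (adjusted p = 0.967).

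The main threonyl enzyme Tars1 was at 52.4, 69.8 and 97.6 CPM after ethanol and 161, 143 and 126 CPM in controls. Ethanol replicate 3 was nearest to the controls, and the groups did not overlap. Tars1 fell by 0.97 on the log2 scale (SE 0.23, adjusted p = 0.0126; without control replicate 1, adjusted p = 0.0509). The tyrosyl enzyme Yars1 was at 10.2, 13.8 and 18.2 CPM against 29.8, 29.98 and 25.3 CPM, again lower in every ethanol library. It fell by 1.02 (SE 0.21, adjusted p = 0.00806). Yars1 overlaps Nhsl3 on the other strand, which differed by -0.11 (adjusted p = 0.484). The isoleucyl enzyme Iars1 fell by 0.94 (SE 0.17, adjusted p = 0.00491), with 18.6, 22.5 and 14.4 CPM against 33.9, 39.0 and 33.9 CPM. The cysteinyl enzyme Cars1 fell by 0.86 (SE 0.11, adjusted p = 0.00109), with 13.3, 11.7 and 12.5 CPM against 22.3, 23.2 and 22.4 CPM. The asparaginyl enzyme Nars1 fell by 0.41 (adjusted p = 0.0375), but not without any 1 control or without ethanol replicate 1 or 2 (adjusted p 0.0511 to 0.114).

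The remaining 15 cytosolic synthetases did not pass, among them Wars1 with a log2 fold change of -0.39 and Eprs1 with 0.30. Aars1, the alanyl enzyme and among the most abundant of them per length, was at 171, 177 and 164 CPM after ethanol and 190, 223 and 220 CPM in controls (log2 fold change -0.30, adjusted p = 0.0549). The groups did not overlap, and Aars1 passed as lower with DESeq2 (adjusted p = 0.0314), upper quartile scaling (0.0255), library size alone (0.000642), a mean FPKM of at least 5 (0.00313) and without control replicate 1 (0.0454). Gars1, the glycyl enzyme, was at 35.1, 39.4 and 39.3 CPM against 34.2, 34.8 and 33.7 CPM (log2 fold change 0.15, adjusted p = 0.253). The FPKM ratio of Tars1 to Gars1 was 0.789, 0.936 and 1.31 after ethanol and 2.48, 2.17 and 1.98 in controls, 2.22-fold higher in controls.

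**Figure D5:**
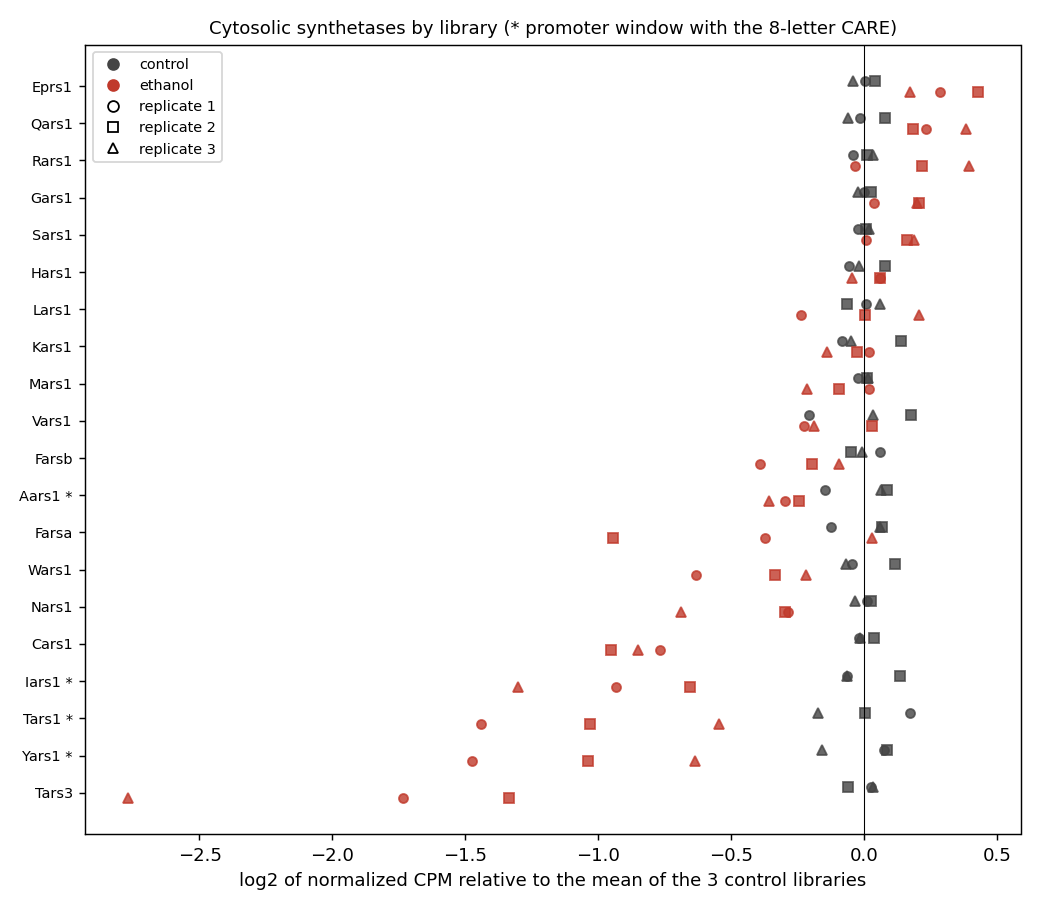
Log2 of normalized CPM relative to the mean of the 3 controls (x axis) for 20 of the 21 cytosolic synthetases in each library, with an asterisk at the 4 whose promoter window holds the 8-letter C/EBP-ATF element. The 6 called genes, from Nars1 to Tars3, lie left of all their controls in the 3 ethanol libraries.

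Synthetase genes are known targets of ATF4, which binds the C/EBP-ATF response element. Their promoters were therefore searched for it in RefSeq windows of GRCm38.p6 from 250 bases before to 50 bases after the annotated start, which matched 83 of 113 members. The 8 letters TGATGCAA, read on both strands, occurred in the windows of Aars1, Iars1, Tars1 and Yars1, which is 4 of 83 members (4.82%) and 1.03% of 27025 genes with a window. The stretches around the matches of Tars1, Yars1 and Iars1 are shown because these 3 of the 4 genes fell in the main test, as did 21.5% of all genes. Capitals mark the match, each sequence is written along its gene's strand, and TTGCATCA is the same element on the other strand.
Tars1, chr15:11399655-11399684, minus strand: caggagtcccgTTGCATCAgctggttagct
Yars1, chr4:129189895-129189924, plus strand: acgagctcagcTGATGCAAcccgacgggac
Iars1, chr13:49682126-49682155, plus strand: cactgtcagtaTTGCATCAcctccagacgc
The match begins at -15 from the annotated start in Tars1, upstream of the transcript, and at 4 in Yars1 and 8 in Iars1, within its first bases.

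Of the 21 cytosolic synthetases 13 had a window, and of the 6 that fell 4 had one, so the others were not searched. Among the 9 other cytosolic synthetases with a window, 1 fell and 0 rose, against 21.5% of all genes in each direction. The looser form TGATGNAA, which includes the former, was found in 7 member windows (8.43%) and 4.51% of all windows. It added Gars1, Eef2k and Eif2s3x, of which Eef2k fell. The stretches of Gars1 and Eef2k are printed because these genes carry the same 8 letters and differed in result.
Gars1, chr6:55037960-55037989, plus strand: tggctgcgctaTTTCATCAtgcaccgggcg
Eef2k, chr7:120851094-120851123, plus strand: ctttctgcttgTTTCATCAagctcagcttg
The E-box CACGTG, whose 2 strands read alike, was in 18 member windows (21.7%) and 8.09% of all windows. Of these 18 genes, 6 rose (33.3%) and 4 fell (22.2%), against 21.5% of all genes in each direction. Aars1, Iars1, Tars1 and Eef2k also had a match to TGATGNAA, and Iars1, Tars1 and Eef2k were among the 4 that fell. Eef2 and Eif3f, both higher after ethanol, are shown with the E-box at -43 and -68 from their start.
Eef2, chr10:81176576-81176605, plus strand: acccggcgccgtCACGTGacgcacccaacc
Eif3f, chr7:108934335-108934364, plus strand: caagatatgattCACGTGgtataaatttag
The ETS element CCGGAAGT was in 11 member windows (13.3%) and 4.31% of all windows, where 3 of the 11 genes rose (27.3%, against 21.5% of all genes) and 0 fell. The CRE element TGACGTCA was in 1 member window (1.2%), that of Eef2, and in 2.03% of all windows. A match of letters does not show that a factor binds there.

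Mitochondrial synthetases charge the tRNAs for the proteins made inside mitochondria. Of 17 tested, 6 fell (35.3%, against 21.5% of all genes) and 0 rose, with a median log2 fold change of -0.50. Of the 17, 16 fell with library size alone (48.3% of all genes). With the length trend removed 4 fell and Fars2 was higher (18.0% of all genes lower and 23.9% higher). Without any 1 control 4 fell (13.5% to 14.3% of all genes). Without ethanol replicate 3 there were 9 lower and 1 higher (27.4% and 24.7% of all genes). Sars2, the seryl enzyme, was at 5.46, 4.82 and 3.13 CPM after ethanol and 8.73, 8.52 and 9.70 CPM in controls. All ethanol libraries were lower, with a log2 fold change of -1.01 (SE 0.23, adjusted p = 0.0109). Hars2, the histidyl enzyme, was at 9.72, 10.3 and 10.9 CPM against 22.6, 19.6 and 19.1 CPM and fell by 0.99 (SE 0.12, adjusted p = 0.00108). Its cytosolic counterpart Hars1, the neighbouring gene on the other strand with which it overlaps, was at 22.6 to 24.4 CPM against 22.5 to 24.7 CPM (log2 fold change 0.02, adjusted p = 0.867). The FPKM ratio of Hars1 to Hars2 was 4.40, 4.16 and 3.65 after ethanol and 1.74, 2.21 and 2.12 in controls. Yars2 fell by 0.78 (adjusted p = 0.00800). Tars2 fell by 0.85 (adjusted p = 0.0170), but not without any 1 control (adjusted p 0.0532 to 0.0608). Nars2 fell by 0.53 (adjusted p = 0.0355), but not without any 1 control or without ethanol replicate 2 (adjusted p 0.0733 to 0.113). Iars2 and Lars2 had log2 fold changes of -0.01 and -0.02.

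Mitochondria form glutaminyl-tRNA by amidating a mischarged tRNA, and 2 of the 3 subunits of that amidotransferase fell, against 21.5% of all genes. With library size alone, all 4 genes of a list with the formyltransferase added fell (48.3% of all genes). Qrsl1, its catalytic subunit, was at 1.55, 1.60 and 2.84 CPM after ethanol and 5.21, 5.38 and 6.02 CPM in controls, without overlap (log2 fold change -1.47, SE 0.28, adjusted p = 0.00579). Gatc fell by 0.80 (SE 0.13, adjusted p = 0.00310), and Gatb overlapped between groups (log2 fold change -0.16, adjusted p = 0.436). Both enzymes that turn seryl-tRNA into selenocysteinyl-tRNA fell, against 21.5% of all genes. With the length trend removed 1 of the 2 was lower (18.0% of all genes), and with the replicate block also 1. Sepsecs, the last enzyme of that route, was at 23.8, 24.8 and 26.6 CPM against 54.3, 48.8 and 47.1 CPM (log2 fold change -0.999, SE 0.11, adjusted p = 0.000607). Pstk, the kinase before it, fell by 0.64 (adjusted p = 0.0249), but not without any 1 control or without ethanol replicate 2 (adjusted p 0.0501 to 0.0831), and it overlaps Fgfr2 on the other strand, which fell by 1.51 (adjusted p = 0.000233). Secisbp2, which recruits selenocysteine to its codon and is no member, fell by 1.09 (adjusted p = 0.000860).

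Other genes of the same pathways were counted from fixed lists, beside 21.5% higher and 21.5% lower among all genes, and 7.39% and 48.3% with library size alone. Of 10 mitochondrial translation factors tested, 0 rose and 6 fell (60.0%: Mtif2, Tsfm, Gfm2, Mtrf1, Mtrf1l and Mtrfr, median of the list -0.87), all 6 under all 5 scalings, and Mtrfr not without control replicate 3 (adjusted p = 0.0546). Of 19 release and accessory factors, 6 rose (31.6%) and 4 fell (21.1%), while with library size alone 1 rose and 11 fell. Ddx3x, an mRNA helicase, rose by 1.05 (adjusted p = 0.000385) and did so under all 5 scalings. The release factor Etf1 rose by 0.77 (adjusted p = 0.00274) and its partner Gspt1 fell by 0.76 (adjusted p = 0.00197). Etf1 did not pass with library size alone (log2 fold change 0.10, adjusted p = 0.519). Gspt2, a paralog of Gspt1 with 4 to 54 counts per library, was called higher (2.21, adjusted p = 0.0382). The Gspt2 call was lost with library size alone (adjusted p = 0.0945) and without control replicate 1 or 2 or ethanol replicate 1 or 3 (adjusted p 0.0701 to 0.122).

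Of 21 tested genes of the ATF4 stress response, 9 rose (42.9%) and 2 fell (9.52%), and with library size alone 5 rose and 4 fell. Chac1, a glutathione-degrading enzyme, was at 24.3, 13.2 and 49.2 CPM after ethanol and 0.777 to 0.945 CPM in controls (log2 fold change 5.12, adjusted p = 0.000481). Ppp1r15a, the eIF2 phosphatase subunit, rose by 2.11 (adjusted p = 0.00109). Atf3 was at 226 and 365 CPM in ethanol replicates 1 and 2, 10.8 CPM in replicate 3 and 0.668 to 1.97 CPM in controls (log2 fold change 7.46, adjusted p = 0.00418). Members of the list that define the response did not all move alike. Atf4 mRNA was at 102, 97.6 and 189 CPM against 86.0 to 90.3 CPM (log2 fold change 0.55, adjusted p = 0.116), Ddit3 overlapped between groups (0.13, adjusted p = 0.637), and Asns and Trib3 did not pass (adjusted p = 0.109 and 0.0700). Trib3 was called higher with DESeq2 (adjusted p = 0.0239) and without ethanol replicate 3 (log2 fold change 1.49, adjusted p = 0.000106). Atf5 fell by 2.26 (adjusted p = 0.000123). Phosphorylation of eIF2 was not measured.

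Of 18 mTORC1 pathway genes, 5 rose (27.8%) and 6 fell (33.3%), and with library size alone 3 rose and 12 fell. Those that rose included the inhibitors Ddit4 (log2 fold change 3.54, adjusted p = 0.00190), Sesn1 (1.63, adjusted p = 0.0107) and Castor1 (2.01, adjusted p = 0.00122), and Mknk2, a kinase of eIF4E (2.56, adjusted p = 0.00408). Sesn1 lost its call with library size alone (log2 fold change 0.98, adjusted p = 0.0599). The fifth that rose was Rheb, the activator of mTORC1 (0.41, adjusted p = 0.0464), which turned to -0.25 with library size alone and lost its call without any 1 control or ethanol replicate 1 or 2 (adjusted p 0.115 to 0.146). Among those that fell were the complex subunits Mlst8 (-2.29, adjusted p = 0.00688) and Rptor (-0.55, adjusted p = 0.00870), and also the inhibitors Deptor (-0.61, adjusted p = 0.00957), Tsc1 (-0.78, adjusted p = 0.00334) and Sesn3 (-0.96, adjusted p = 0.00370). Mtor itself differed by 0.32 (adjusted p = 0.0671). These are mRNA levels, and the phosphorylation of the 4E-binding proteins was not measured.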

How the data were processed

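Liver RNA from 3 ethanol-exposed and 3 control mice, grouped by their labels, was sequenced as paired 150 base reads. The authors filtered the reads for adaptors, quality and ambiguous bases. They deposited raw counts for every Ensembl gene, as whole numbers. For the same genes the authors deposited FPKM, which divides by transcript length and library total. The aligner and counter are not given in the sources used here, nor is the use of strand, and 57 of the 110 members tested overlap another gene on either strand (29 on the same strand). The submitters' processing notes name GRCm38 (mm10), but only 539 of 27049 table genes had the same start and end in the GRCm38 annotation. Gene positions are therefore given as deposited, without a build, and promoter positions are those of RefSeq on GRCm38.p6. The table held 1 further count column that matches no library, which was not used.

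Genes that passed filterByExpr were compared by edgeR's quasi-likelihood test with TMM factors, two-sided, without covariates, with Benjamini-Hochberg adjustment over all 16717 genes tested and a threshold of 0.05. The design had named limma on log2(FPKM + 1) for a table without counts, and limma became an alternative. Software was edgeR 4.0.16, DESeq2 1.42.0 and limma 3.58.1 under R 4.3.3, and pandas 2.3.3 under Python 3.11.15. The test was checked on simulated counts. SE was the absolute log2 fold change over the square root of F. The square root of the common dispersion was 0.299. Nothing in the labels beyond the mouse numbers describes the replicates, so p-values measure the spread between these mice. Floors of 3 counts cover counting error only. Libraries of a group had chi-square values of 49.6 to 496 per degree of freedom, far beyond counting noise, so none was a duplicate.

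Members and lists were chosen with earlier results of these data known, so counts over them are descriptions. Named genes are, per role, called members with a log2 fold change beyond 1, the eIF2 kinases, cap-binding and 4E-binding genes, eIF2, eIF2B, Eef1a1, Eef1a2, Eef2 and Eef2k, the largest and smallest fold of each complex and the 3 most abundant members of each role. Some items are not reported here, and other members appear as called genes of a group, chosen after their values were seen. Alternatives were other scalings and filters, DESeq2, limma, a replicate block and leaving out each library.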

Additional observations from a re-analysis of the deposited data

How the results depend on the processing

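Of the alternatives to the main test (23 members higher, 24 lower), library size alone gave 3 higher and 81 lower, and limma on log2(FPKM + 1) and log2(FPKM + 0.1) each gave 4 higher and 81 lower. A mean FPKM of at least 5 left 63 members, with 14 higher and 28 lower. Requiring a log2 fold change beyond 1 left 5 higher and 7 lower. For the 4 context lists together, the higher count was 9 with library size alone, 9 with either limma fit, and 12 with the FPKM filter or the fold threshold. Their lower count was 37 with library size alone, 36 with either limma fit, 11 with the FPKM filter and 8 with the fold threshold. FPKM and library size share a scaling, while the cause of the other shifts was not tested. DESeq2 called 28 and 28 members, median ratio size factors 24 and 24, upper quartile scaling 19 and 31, and no filter 22 and 22. Leaving out each library in turn gave 16 to 28 higher and 15 to 36 lower members. In those fits 18 called members lost their call at least once.

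The labels give mice with the same number nothing else in common. Their deviations from the group means correlated at -0.03, -0.02 and -0.02, which cannot show whether such mice were handled together. With the replicate block, 18 members were higher and 17 lower.

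Signs also turned in single genes. With library size alone the log2 fold changes were -0.037 for Eef1a1, -0.53 for Eef1g, -0.46 for Eif2b1, -0.34 for Eif2b2, -0.63 for Eif2s2, -0.55 for Eif2s3y, -0.27 for Eif4a1, -0.49 for Eif4e and -0.28 for Eif5a. With limma on log2(FPKM + 0.1) they were, in that order, -0.051, -0.56, -0.48, -0.34, -0.63, -0.56, -0.28, -0.49 and -0.29, and with limma on log2(FPKM + 1) they were -0.051, -0.55, -0.42, -0.30, -0.55, -0.50, -0.27, -0.43 and -0.29. The FPKM filter gave -0.15 for Eef1g, -0.055 for Eif2b1, -0.24 for Eif2s2, -0.16 for Eif2s3y and -0.10 for Eif4e. Upper quartile scaling gave -0.060 for Eif2s2. DESeq2 gave 0.00048 and median ratio size factors 0.00053 for Eif2s3x. With the length trend removed, Eef1e1 was at 0.093, Eif2s3x at 0.16, Eif4g1 at 0.16, Gatb at 0.013 and Iars2 at 0.18. Over the fits that left out 1 library each, Eef1e1 ranged from -0.19 to 0.080, Eif2s2 from -0.018 to 0.087, Eif2s3x from -0.041 to 0.040, Eif4g1 from -0.13 to 0.057 and Iars2 from -0.051 to 0.087.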
